A study of Mus musculus with 12 samples.

Results

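10 genes known from germ cells and meiosis were followed through the first days of differentiation of mouse embryonic stem (ES) cells: Stra8, Sycp1, Sycp3, Dazl, Ddx4, Nanos3, Mael, Tex19.1, Dppa3 and Prdm1. They were taken by name from the gene names of the array's non-control probes, as genes with signal in the 6 groups that are lost on leaving the undifferentiated state. The 10 genes have 11 probes, since Dazl has 2, among 41142 usable probes, and all 10 were among the 17533 genes that passed the filter on dim probes. They did not share that course. Stra8 fell at day 1, most of the others had fallen by day 4 of embryoid body culture, Nanos3 passed no test, and Prdm1 rose.

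The cells were ES cells of strain 129. The groups were undifferentiated cells (titled LIF), embryoid bodies at day 1, day 3 and day 4 (EB, cells differentiating as floating aggregates), and monolayer cultures at day 1 and day 3 (ML). Each of the 6 groups had 2 arrays, labelled clone #1 and clone #2, and the series describes independent experiments done by different people. The clone numbers did not pair the samples across groups. No agent that starts differentiation is named in the labels.

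Stra8 is induced by retinoic acid in germ cells and is needed for entry into meiosis. Sycp1 and Sycp3 build the synaptonemal complex that holds paired chromosomes together. Dazl, Ddx4 and Nanos3 act on RNA in germ cells, Mael and Tex19.1 restrain transposable elements in the germline, and Prdm1 and Dppa3 belong to primordial germ cells, the founders of the germline. Many germline genes have CpG-rich promoters that are silenced in the embryo by DNA methylation and by a repressor complex holding E2F6, MAX and MGA, and ES cells are known to transcribe part of them.

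The promoters of the members differed in the letters such a complex is known to bind. RefSeq promoter entries (GRCm38.p6) were matched for 9 of the 10 genes, all but Dppa3. The 250 bases before the start are shown for Stra8, the first member to fall, and for 3 members that fell by EB day 4 and hold the E-box CACGTG. Capitals mark CACGTG and the E2F-type sequence GGCGGGA, searched on both strands, so that it may read TCCCGCC. These 2 motifs were chosen with the sequences in view. The windows are chr6:34920698-34920947 (plus strand) for Stra8, chr13:112652311-112652560 (minus strand) for Ddx4, chr10:88459337-88459586 (plus strand) for Sycp3 and chr1:166238745-166238994 (minus strand) for Mael.
Stra8: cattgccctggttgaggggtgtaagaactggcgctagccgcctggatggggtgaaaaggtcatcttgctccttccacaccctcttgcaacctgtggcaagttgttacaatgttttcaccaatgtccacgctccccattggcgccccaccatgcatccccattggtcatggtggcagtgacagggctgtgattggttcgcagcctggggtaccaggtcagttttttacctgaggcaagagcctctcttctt
Ddx4: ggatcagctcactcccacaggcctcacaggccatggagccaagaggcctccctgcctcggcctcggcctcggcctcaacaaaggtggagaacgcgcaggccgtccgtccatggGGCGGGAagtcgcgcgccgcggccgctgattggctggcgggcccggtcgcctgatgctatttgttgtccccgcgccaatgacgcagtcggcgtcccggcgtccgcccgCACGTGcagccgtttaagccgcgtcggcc
Sycp3: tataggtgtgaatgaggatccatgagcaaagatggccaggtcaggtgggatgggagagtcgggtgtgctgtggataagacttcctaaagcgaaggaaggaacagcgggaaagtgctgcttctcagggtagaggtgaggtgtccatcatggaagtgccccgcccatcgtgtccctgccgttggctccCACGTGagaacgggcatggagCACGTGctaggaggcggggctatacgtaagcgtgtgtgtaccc
Mael: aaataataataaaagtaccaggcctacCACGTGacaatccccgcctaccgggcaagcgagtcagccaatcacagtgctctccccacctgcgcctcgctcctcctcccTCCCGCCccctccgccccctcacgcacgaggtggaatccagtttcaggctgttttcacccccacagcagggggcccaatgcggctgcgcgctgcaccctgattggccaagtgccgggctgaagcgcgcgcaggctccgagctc

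CACGTG was present in 4 of the 9 windows and in 6.02% of the 32851 promoters of the same length. It lay 29 bases before the start of Ddx4, 94 before Sycp1, 223 before Mael, and 64 and 43 before Sycp3. GGCGGGA was found in 2 of the 9, Ddx4 at 137 bases and Mael at 143, and in 9.75% of all promoters. Neither was in the windows of Stra8, Dazl, Prdm1, Nanos3 or Tex19.1. The Ddx4 window held 31 CpG dinucleotides, Dazl 20, Mael 18 and Sycp1 17, against a median of 6 and an upper quartile of 16 over all promoters. Tex19.1 and Prdm1 had 15, Sycp3 12, Stra8 5 and Nanos3 3. Stra8, the member that fell first, had neither motif and fewer CpGs than the median promoter, as did Nanos3, which was called in no comparison. Matches are a description of the letters and were not tested against the expression values.

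Values are log2 of the array's processed signal minus the array's own 75th percentile, so that 0 is the 75th percentile. Levels are compared across arrays for one probe and not between genes. A change was called when limma's moderated test, fitted on all genes and 12 arrays, gave a Benjamini-Hochberg adjusted p under 0.05 over the 17533 genes. With 2 arrays a group the number of arrays limits the precision. Between 52.12% and 63.82% of the spots of an array were well above background. The undifferentiated arrays and the EB day 4 arrays were each on a slide and a scan day of their own, so the slide and scan day cannot be told apart from those groups. The EB day 4 arrays were also read on another scanner than all the others, which cannot be told apart from that group either. Their dimmest signals well above background were -4.397 and -4.158, against -5.741 to -4.793 on the other arrays. EB days 1 and 3 shared a slide, ML days 1 and 3 shared another, and these 8 arrays were scanned on the same day. Spike-in controls, set to the same scale, exceeded their level in undifferentiated cells by 1.09 to 1.29 (log2) in each of the day 1 and day 3 groups and by 0.001 in EB day 4. Markers of feeder fibroblasts (9 of 11 passing the filter) summed to 145 and 40.5 times the 75th percentile in the undifferentiated arrays and to between 7.21 and 24.0 in the other 10. S100a4, named after its value was seen, was at 5.67 ± 1.58 there (SD, n = 2), while Col1a1 was at 2.43 ± 0.85 in undifferentiated cells, 2.57 ± 0.41 in ML day 1 and 2.71 ± 0.26 in ML day 3. Of the 9 feeder markers, limma called 4 lower than undifferentiated cells at EB day 1 and 3 at ML day 1. The count was 7 at EB day 3, 6 at ML day 3 and 6 at EB day 4, where 1 was higher. Median changes of the 9 ran from -1.89 to -1.46. Among all genes, 5.46% (EB day 1) to 22.2% (EB day 4) were called lower. The part of the spike-in and feeder differences in the changes from undifferentiated cells was not tested. RNA came from whole cultures, where fewer cells of a type and less RNA per cell cannot be told apart.

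**Figure D1:**
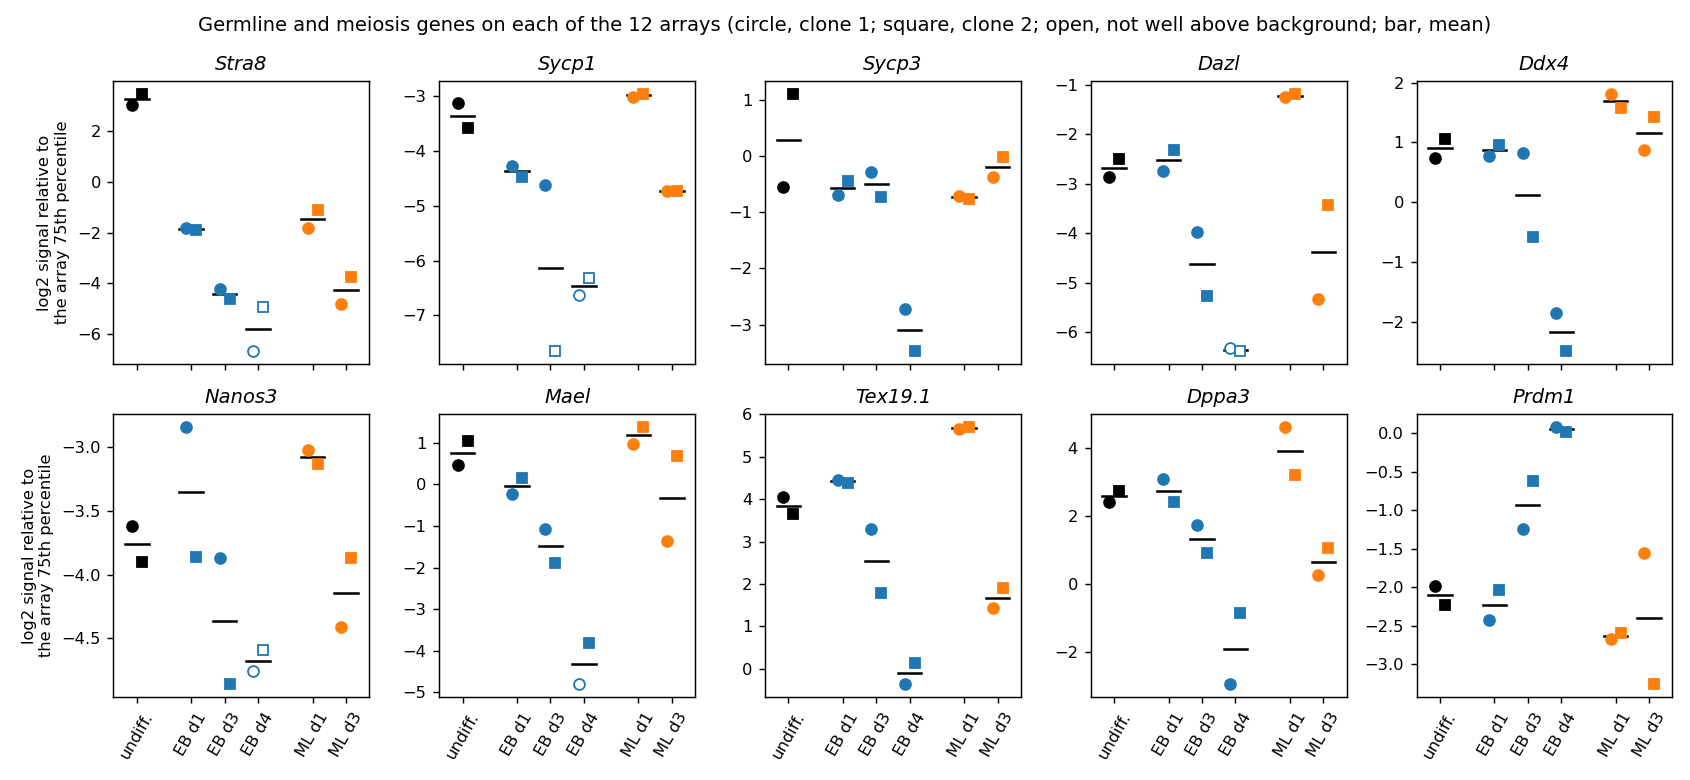
Log2 signal relative to the array's 75th percentile for the 10 genes on each array (undiff., undifferentiated; d, day; each panel has its own scale). Circles are clone 1, squares clone 2, open symbols are spots not well above background and bars are group means. Stra8 drops at day 1. Tex19.1, Dppa3, Dazl, Ddx4, Sycp1, Mael and Nanos3 have their highest mean in ML day 1, with arrays of Mael and Nanos3 overlapping the next group. Most members are lowest in EB day 4, and Prdm1 is highest there.

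Stra8 showed the earliest and the steepest fall of the 10 genes. Its probe (mm9 chr6:34889231-34889290) read 3.02 and 3.44 in undifferentiated cells. It read -1.83 and -1.89 in EB day 1 and -1.84 and -1.13 in ML day 1. All 4 day 1 arrays lay below both undifferentiated arrays. Stra8 was 34.1-fold lower in EB day 1 (log2 change -5.09 ± 0.54, SE, adjusted p = 0.00242 by limma) and 26.4-fold lower in ML day 1 (-4.72 ± 0.54, adjusted p = 0.00324). Ranked from the largest decrease it stood 11th and 12th of the 17533 genes.

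The fall went on to day 3 in both cultures. Stra8 read -4.22 and -4.62 in EB day 3 and -4.79 and -3.75 in ML day 3. These values were 202-fold (-7.66 ± 0.54, adjusted p = 0.000109 by limma) and 182-fold (-7.51 ± 0.54, adjusted p = 0.000162) below undifferentiated cells, or -5.99 and -5.95 with the normexp background correction, which compresses dim signals. At EB day 4 neither array was well above background, with readings of -6.65 and -4.92. The fall from undifferentiated cells was then at least 182-fold (fitted change -9.02 ± 0.54, adjusted p = 2.85e-05), a bound set against the dimmest signal well above background on the same arrays. The fitted change was -5.82 with normexp, and -9.88 and -8.16 without clone 2 or clone 1 of EB day 4. Within the ML slide Stra8 was 6.9-fold lower at day 3 than at day 1 (adjusted p = 0.0131 by limma). It did not hold without ML day 1 clone 2 (adjusted p = 0.112) or ML day 3 clone 1 (0.0838). Within the EB slide it was 5.93-fold lower (adjusted p = 0.0293), a call that ended whichever of the 4 arrays was left out (adjusted p up to 0.2), with quantile scaling (0.0571), with the authors' values (0.0575) and with no filter (0.0542). With normexp the changes were -1.59 within ML and -1.35 within EB.

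**Figure D2:**
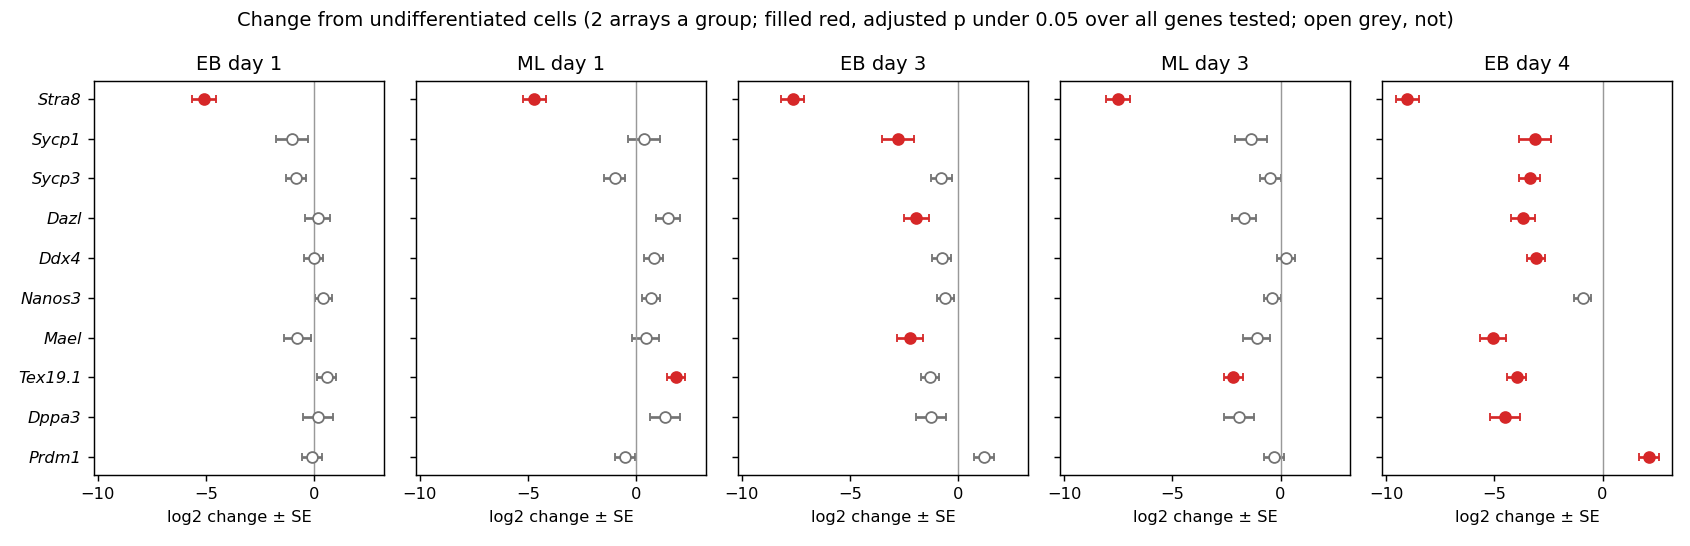
Log2 change of the 10 genes from undifferentiated cells in each of the 5 differentiated groups, with the standard error of the fit (2 arrays a group). Filled red points have an adjusted p under 0.05 over all genes tested; Stra8 is the one red point at EB day 1, and 9 of 10 genes are red at EB day 4.

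Of the synaptonemal complex genes, Sycp3 was called lower than in undifferentiated cells at EB day 4 and Sycp1 at EB days 3 and 4. Sycp3 (listed at mm9 chr10:87932348-87935438) read -0.55 and 1.1 in undifferentiated cells, and the 8 arrays of EB and ML days 1 and 3 read between -0.76 and -0.02. At those times no change of Sycp3 was called, and the undifferentiated arrays differed from each other by more than the 8 arrays did among themselves. By day 4 of EB culture Sycp3 read -2.72 and -3.47, below every other array. It was 10.3-fold lower than in undifferentiated cells (-3.37 ± 0.48, adjusted p = 0.000766 by limma), with values of -4.19 and -2.55 without undifferentiated clone 1 or clone 2, and -2.26 with normexp. It was 5.98-fold lower than in EB day 3 (-2.58 ± 0.48, adjusted p = 0.0118), a call lost without EB day 3 clone 1 (adjusted p = 0.0902) or EB day 4 clone 2 (0.085), and -1.64 with normexp.

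Sycp1 was dim throughout. Its probe (listed at mm9 chr3:102657397-102658068) read -3.12 and -3.59 in undifferentiated cells, -4.27 and -4.47 in EB day 1 and -3.01 and -2.96 in ML day 1. It read -4.63 and -7.65 in EB day 3, where clone 2 was not well above background, and -4.74 on both ML day 3 arrays. In EB day 4 it read -6.62 and -6.32, not well above background on either array. Sycp1 was called lower than in undifferentiated cells in EB day 3 (-2.78 ± 0.74, adjusted p = 0.0254 by limma), and the change was -4.30 and -1.27 without clone 1 or clone 2 of EB day 3. That call ended without undifferentiated clone 1 (adjusted p = 0.0985) or clone 2 (0.0701) and in a fit of the compared groups alone (0.142). At EB day 4 Sycp1 was at least 1.89-fold lower (adjusted p = 0.00922), a call that ended without EB day 4 clone 1 (adjusted p = 0.0512) and with normexp (-0.30, adjusted p = 0.214). The normexp change in EB day 3 was -0.56.

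Among the RNA-binding proteins, Ddx4, the germ cell RNA helicase also called VASA, showed no called change before EB day 4. Its probe (mm9 chr13:113388616-113388675) read 0.74 and 1.06 in undifferentiated cells, 0.78 and 0.96 in EB day 1, 1.81 and 1.57 in ML day 1 and 0.87 and 1.43 in ML day 3. The EB day 3 arrays read 0.83 and -0.58. None of these 4 groups passed the test against undifferentiated cells (adjusted p 0.219 to 0.969 by limma). By day 4 of EB culture Ddx4 read -1.85 and -2.48, below all other arrays. It was 8.38-fold lower than in undifferentiated cells (-3.07 ± 0.43, adjusted p = 0.000732; -2.28 with normexp). From EB day 3 it was 4.9-fold lower (-2.29 ± 0.43, adjusted p = 0.0125), with -3.00 and -1.59 without EB day 3 clone 2 or clone 1. Significance was lost without EB day 3 clone 1 (adjusted p = 0.066) or EB day 4 clone 2 (0.0884) and in a fit of the compared groups alone (0.0774). With normexp the change was -1.70.

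Dazl, which binds the RNA of germ cell genes and controls their translation, was followed by the brighter of its 2 probes (mm9 chr17:50418923-50418982). It read -2.86 and -2.49 in undifferentiated cells, -2.73 and -2.32 in EB day 1 and -1.25 and -1.18 in ML day 1. The ML day 1 arrays were the highest of the 12, 2.75-fold above undifferentiated cells without passing the test (adjusted p = 0.105 by limma). Day 3 arrays read -3.98 and -5.27 in EB and -5.32 and -3.42 in ML. Within the ML slide Dazl was 8.89-fold lower at day 3 than at day 1 (-3.15 ± 0.57, adjusted p = 0.0102), with -4.10 and -2.21 without ML day 3 clone 2 or clone 1. That call ended without ML day 1 clone 2 (adjusted p = 0.078) and in a fit of the compared groups alone (0.0701). The change was -1.63 with normexp.

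Dazl read -6.32 and -6.38 in EB day 4, not well above background. It was at least 3.03-fold lower there than in undifferentiated cells (fitted change -3.67 ± 0.57, adjusted p = 0.00125 by limma; -0.75 with normexp). In EB day 3 it was 3.85-fold lower (adjusted p = 0.0381). That call held in 1 of 4 fits with an array left out, ending without undifferentiated clone 1 (0.0801), undifferentiated clone 2 (0.15) or EB day 3 clone 2 (0.219), where the change was -1.30, while without EB day 3 clone 1 it was -2.59. It also ended with quantile scaling (0.06), the authors' values (0.0595), no filter (0.0629) and the compared groups alone (0.0732), and was -0.81 with normexp. The second Dazl probe (listed at mm9 chr17:50426957-50427103) was well above background on 7 of 12 arrays. The 5 others were both arrays of EB day 3, both of EB day 4 and clone 1 of ML day 3. A fit over all probes called it lower than undifferentiated cells in EB day 3 (adjusted p = 0.0191 by limma), EB day 4 (0.00935) and ML day 3 (0.0228), where the brighter probe was not called (0.0583), and lower in ML day 3 than in ML day 1 (0.03). The sizes of these changes are not measured, since the dim arrays were at background. In EB day 1 the probes differed in sign, -0.97 against 0.15, with neither called.

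Nanos3, needed for the survival of primordial germ cells, was called in no comparison. Its probe (mm9 chr8:86700210-86700269) read -3.62 and -3.90 in undifferentiated cells and between -4.86 and -2.84 in the EB and ML arrays. The highest array was EB day 1 clone 1 at -2.84, the ML day 1 arrays at -3.02 and -3.13 overlapped those of EB day 1, and the EB day 4 readings of -4.76 and -4.59 were not well above background. The EB day 4 change was -0.91 ± 0.40 (adjusted p = 0.096 by limma).

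Both genes of transposon defence were called lower in EB day 4, and each was called lower in 1 of the day 3 groups, Tex19.1 in ML and Mael in EB. Tex19.1 was well above background on all 12 arrays. Tex19.1 (mm9 chr11:121009485-121009544), found in pluripotent cells and germ cells, read 4.04 and 3.66 in undifferentiated cells, 4.45 and 4.39 in EB day 1 and 5.65 and 5.70 in ML day 1. The ML day 1 arrays stood above all others. Tex19.1 was 3.53-fold higher there than in undifferentiated cells (1.82 ± 0.43, adjusted p = 0.0235 by limma). That call ended with quantile scaling (adjusted p = 0.0667), with the authors' values (0.0661), and without undifferentiated clone 2 (0.125), ML day 1 clone 1 (0.1) or ML day 1 clone 2 (0.119). The direction was the same in all of these.

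Tex19.1 then read 3.30 and 1.79 in EB day 3, 1.44 and 1.91 in ML day 3 and -0.36 and 0.15 in EB day 4. Within the ML slide it was 16.0-fold lower at day 3 than at day 1 (-4.00 ± 0.43, adjusted p = 0.0013 by limma), and the call held in every fit with an array left out. ML day 3 was 4.54-fold below undifferentiated cells (adjusted p = 0.00796) and EB day 4 was 15.5-fold below (-3.96 ± 0.43, adjusted p = 0.00021). EB day 4 was also 6.29-fold below EB day 3 (adjusted p = 0.00764), with -3.41 and -1.90 without EB day 3 clone 2 or clone 1, a call that ended in a fit of the compared groups alone (0.0686). EB day 3 was 3.67-fold below EB day 1 (adjusted p = 0.0388), with -2.63 and -1.12 without EB day 3 clone 1 or clone 2. That last call ended without EB day 1 clone 1 (0.173), EB day 1 clone 2 (0.2) or EB day 3 clone 2 (0.195), with quantile scaling (0.0536), the authors' values (0.0531), no filter (0.0702), the compared groups alone (0.115) and the 8 arrays of the shared scan day alone (0.0689).

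Mael (mm9 chr1:168131583-168131642), a protein of the germ granule that takes part in piRNA silencing of transposons, read 0.47 and 1.05 in undifferentiated cells. It read -0.22 and 0.16 in EB day 1 and 0.98 and 1.38 in ML day 1. In EB it went to -1.08 and -1.89 at day 3 and -4.80 and -3.81 at day 4, where clone 1 was not well above background. The ML day 3 arrays were apart, at -1.36 and 0.69. In the fit Mael was 33.4-fold lower in EB day 4 than in undifferentiated cells (-5.06 ± 0.62, adjusted p = 0.000369 by limma, or -3.19 with normexp). With a dim array there Mael has no exact fold. It was 4.74-fold lower in EB day 3 (adjusted p = 0.0297), a call that ended whichever of the 4 arrays was left out (adjusted p up to 0.156) and with no filter (0.05). From EB day 3 to EB day 4 the fit put it 7.06-fold lower (adjusted p = 0.0217), again not an exact size. This call was lost without EB day 3 clone 1 (0.148), EB day 4 clone 1 (0.115) or EB day 4 clone 2 (0.0545), in the compared groups alone (0.054) and with normexp (-1.17, adjusted p = 0.109).

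Dppa3, also called Stella, protects the maternal genome from demethylation and marks primordial germ cells and naive ES cells. Its probe (mm9 chr6:122580134-122580193) read 2.42 and 2.76 in undifferentiated cells, 3.11 and 2.41 in EB day 1 and 4.63 and 3.21 in ML day 1. It read 1.76 and 0.93 in EB day 3, 0.26 and 1.06 in ML day 3 and -2.94 and -0.85 in EB day 4. The EB day 4 arrays were the lowest. Dppa3 was 22.4-fold lower there than in undifferentiated cells (-4.49 ± 0.69, adjusted p = 0.00117 by limma), with -5.53 and -3.44 without EB day 4 clone 2 or clone 1, and -3.70 with normexp. It was 9.46-fold lower than in EB day 3 (adjusted p = 0.0198), with -4.29 and -2.20 without EB day 4 clone 2 or clone 1 and -2.54 with normexp. That call ended without EB day 3 clone 1 (0.137) or EB day 4 clone 1 (0.091) and in the compared groups alone (0.0776). Within the ML slide Dppa3 was 9.58-fold lower at day 3 than at day 1 (adjusted p = 0.0184), with -3.97 and -2.55 without ML day 1 clone 2 or clone 1. The call did not stand without ML day 1 clone 1 (0.104) or ML day 3 clone 1 (0.107) and in the compared groups alone (0.0511).

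**Figure D3:**
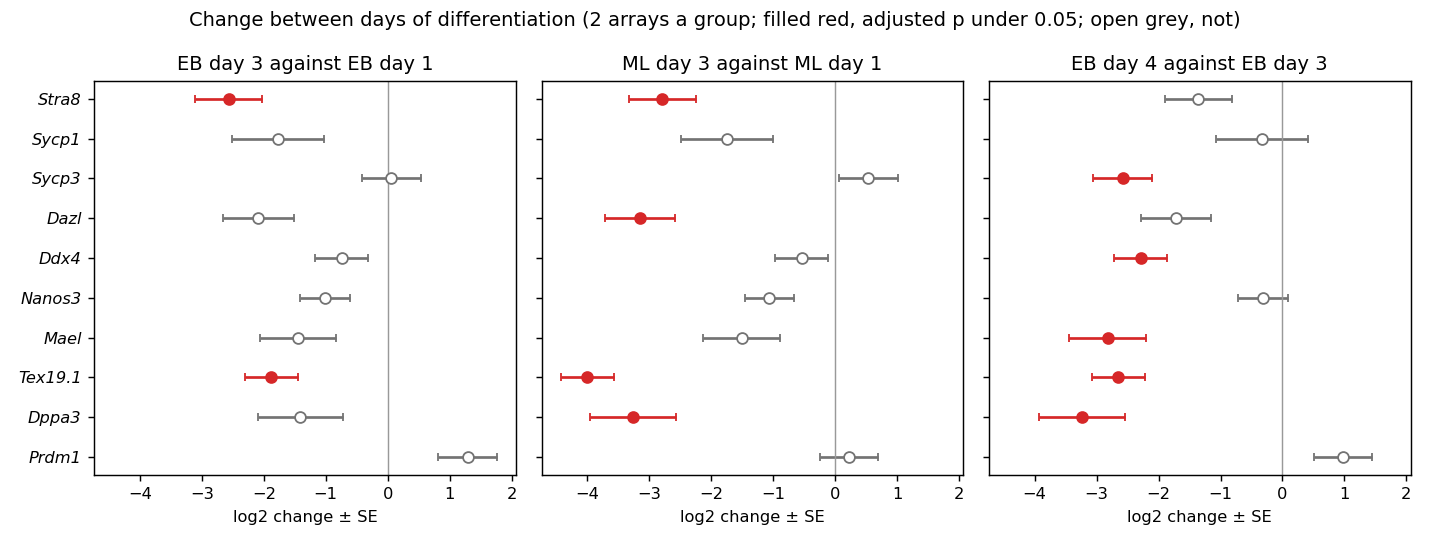
Log2 change of the 10 genes between days of culture, with the standard error of the fit (2 arrays a group; EB day 3 and EB day 1 share a slide, as do ML day 3 and ML day 1, and EB day 4 has its own). Filled red points have an adjusted p under 0.05 over all genes tested: 2 genes in EB day 3, 4 in ML day 3 and 5 in EB day 4, all lower.

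Prdm1, a transcriptional repressor that specifies primordial germ cells and is also known from endoderm and other embryonic tissues, went the other way. Its probe (mm9 chr10:44157291-44157350) read -1.98 and -2.23 in undifferentiated cells, -2.42 and -2.04 in EB day 1 and -2.67 and -2.59 in ML day 1. It read -1.25 and -0.62 in EB day 3 and 0.08 and 0.02 in EB day 4, above all other arrays, against -1.55 and -3.26 in ML day 3. In EB day 4 it was 4.45-fold higher than in undifferentiated cells (2.15 ± 0.47, adjusted p = 0.00627 by limma), a call that held in every fit with an array left out. The EB day 3 change of 1.17 ± 0.47 did not pass (adjusted p = 0.0996), nor did the difference of 1.47 ± 0.47 between EB and ML at day 3 (adjusted p = 0.138).

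Markers of endoderm and mesoderm, like Prdm1, were highest in EB days 3 and 4. In ML day 3, 4 of 8 mesoderm and 2 of 9 endoderm markers were called higher than in undifferentiated cells (12.6% of all genes). There 1 endoderm marker was called lower, and Prdm1 was not called (-0.3 ± 0.47, adjusted p = 0.672 by limma). The endoderm markers (9 of 10 passing the filter) summed to 59.0 to 74.2 times the 75th percentile in EB days 3 and 4, 5.25 and 5.49 in ML day 3 and 1.88 to 7.69 in the other groups. The mesoderm markers (8 of 8) summed to 23.8 to 80.6 in EB days 3 and 4, 5.64 and 5.78 in ML day 3 and 0.749 to 2.71 elsewhere. In EB day 4, 7 of 9 endoderm markers and 8 of 8 mesoderm markers were called higher than in undifferentiated cells, where 18.8% of all genes were, among them Sox17 (59.2-fold) and T (54.3-fold). The endoderm marker Amn was called lower (3.06-fold). Their part in the Prdm1 value was not tested. Over the 12 arrays the gene most like Prdm1 was Kdr, a receptor of early mesoderm and endothelium that is itself one of the 8 mesoderm markers (Pearson r = 0.984), followed by Plxna2 (0.957) and Prss12 (0.949).

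**Figure D4:**
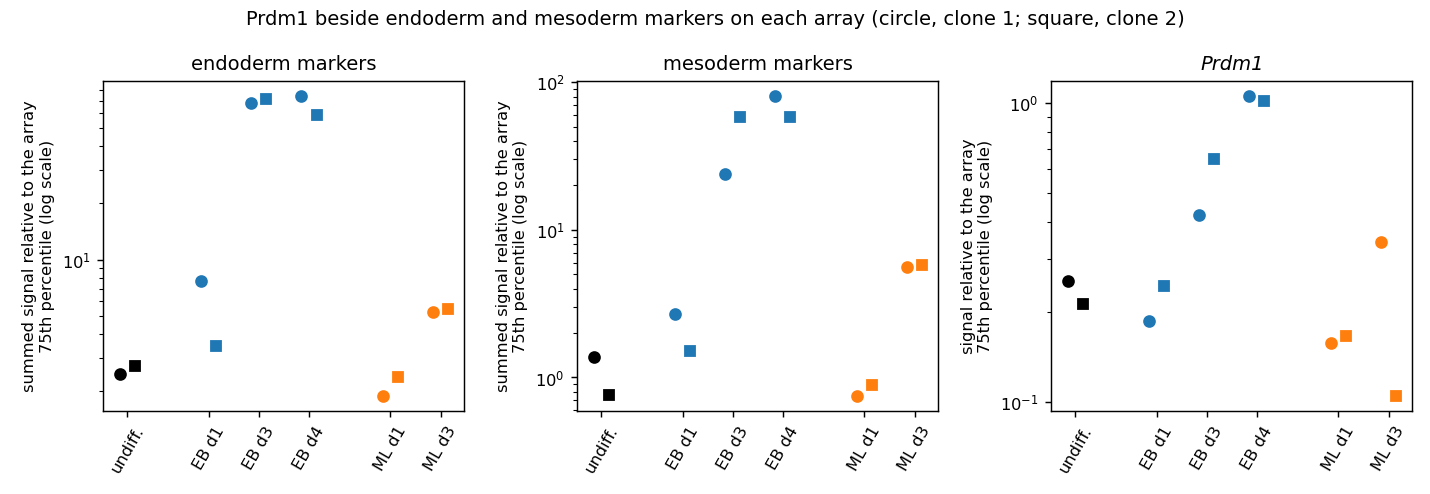
Summed signal of endoderm markers (left) and mesoderm markers (middle) and signal of Prdm1 (right) on each array, relative to the array's 75th percentile on log axes (circles, clone 1; squares, clone 2). All 3 are highest in EB days 3 and 4, where the endoderm sum is 59.0 to 74.2, against 5.25 and 5.49 in ML day 3. For Prdm1 the nearest ML day 3 array, clone 1 at -1.55 (log2), lies close to EB day 3 clone 1 at -1.25.

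Counted together, 1 of the 10 genes was called lower in EB day 1 (Stra8), where 5.46% of all genes tested were, and none was called higher (8.09%). Without undifferentiated clone 1 that count was 2. In ML day 1, 1 was lower (6.43% of all genes) and 1 higher, Tex19.1 (11.7%). The lower count was 2 without undifferentiated clone 1, and the higher count 0 without any of the other 3 arrays. In that comparison all genes split into 1127 lower and 2043 higher, or 1055 and 1242 with the authors' values. In EB day 3, 4 of 10 were lower (10.8%) and none higher (13%). The count of 4 was 1 without undifferentiated clone 2, 2 without undifferentiated clone 1 or EB day 3 clone 2, and 5 without EB day 3 clone 1. In ML day 3, 2 were lower (10.8%), Stra8 and Tex19.1, and none higher (12.6%). That count was 3 without undifferentiated clone 1, 4 without ML day 3 clone 2, 3 without ML day 3 clone 1 and 4 with normexp. In EB day 4, 8 were lower (22.2%) and 1 higher (18.8%). The median change of the 10 went from -0.08 in EB day 1 and 0.55 in ML day 1 to -1.28 in EB day 3, -1.24 in ML day 3 and -3.52 in EB day 4, while the median over all genes tested stayed between -0.05 and 0.14. These 5 comparisons share the undifferentiated arrays.

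Between days, EB day 3 was lower than EB day 1 for 2 of 10 genes (2.35% of all genes), Stra8 and Tex19.1, with median change -1.43. Without EB day 3 clone 1 the count was 3, and without EB day 3 clone 2, EB day 1 clone 1 or EB day 1 clone 2 it was 0. ML day 3 was lower than ML day 1 for 4 (6.7%), with median -1.63, and there were 5 lower and 1 higher without ML day 3 clone 2, and 2 lower without ML day 3 clone 1 or ML day 1 clone 2. EB day 4 was lower than EB day 3 for 5 (8.87%), Ddx4, Sycp3, Mael, Tex19.1 and Dppa3, with median -2.01. The count was 1 without EB day 3 clone 1 and 3 without either EB day 4 array. None of the 10 was called higher in these 3 comparisons (3.14%, 5.8% and 3.9% of all genes).

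Embryoid bodies and monolayers of the same day were then compared. They lay on different slides, so format and slide cannot be told apart in the same-day comparisons. At day 1 the median change of the 10 from ML to EB was -0.99, against -0.06 over all genes. At day 3 it was -0.24 against 0.02. Between EB day 1 and ML day 1 none of the 10 was called by limma (0.131% of all genes in either direction), and 2 had an unadjusted p under 0.05, Tex19.1 (-1.25 ± 0.43, adjusted p = 0.395) and Dazl (-1.31 ± 0.57, adjusted p = 0.53). Between EB day 3 and ML day 3 none was called (3.34%), and 2 had an unadjusted p under 0.05, Ddx4 (-1.03 ± 0.43) and Prdm1. Without EB day 3 clone 1 there were 2 calls and without ML day 3 clone 1 there was 1. The test of whether the day 1 to day 3 change differed between formats called none of the 10 (0.245% of all genes), and 1 had an unadjusted p under 0.05, Tex19.1 at 2.13 ± 0.61 (adjusted p = 0.246). A p that misses the threshold does not show that the formats were alike.

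The members' courses over the 12 arrays were compared with 9003 named genes whose group means spanned at least 1 log2 unit. Arrays of a group share their condition, so the correlations describe the 6 groups and carry no test. Stra8 was most like Aurkc, an aurora kinase of meiotic cells (r = 0.991), which had group means of 0.60 in undifferentiated cells, -2.15 in EB day 1, -2.05 in ML day 1 and -4.71 in EB day 4. Skap2 (0.981) and Podnl1 (0.966) came next. Dazl was most like Ston2 (r = 0.982), then Zp3, a protein of the egg coat (0.974), and Tigar (0.974). Zp3 had means of -0.39 in undifferentiated cells, 0.90 in ML day 1 and -3.06 in ML day 3. Mael was most like Aldh7a1 (r = 0.977), then Rhox13, a homeobox gene of germ cells (0.976), and Clpb (0.974). The nearest gene was Trap1a for Tex19.1 (0.984), Cyct, the testis form of cytochrome c, for Dppa3 (0.967) and Adar for Ddx4 (0.983). It was Abcb1a for Sycp1 (0.98), Atp4a for Sycp3 (0.963) and Igsf23 for Nanos3 (0.951). Next came Ctrc and Zfp296 for Tex19.1, Kremen1 and Rhox4e for Dppa3, and Bmerb1 and Mtcl1 for Ddx4. For Sycp1 they were H1f6 and Akap1, for Sycp3 Miox and Mlxipl, and for Nanos3 Cars2 and Prok1. Among the members, Dazl and Tex19.1 (r = 0.961), Dppa3 and Tex19.1 (0.954) and Mael and Ddx4 (0.928) ran most closely, and Mael and Prdm1 ran opposite (-0.931).

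The arrays were also checked for the expression of mature germ cells. Of 8 markers of testicular germ cells 4 passed the filter and of 8 oocyte markers 3 did. Their sums stayed between 0.388 and 0.757 and between 0.232 and 2.09 times the 75th percentile, the oocyte sum being highest in ML day 1. Most of the oocyte sum there was Zp3 alone, with a group mean of 0.90 (log2). On those arrays 2 and 3 of the 8 oocyte markers were well above background. ES cell markers (10 of 10 passing) summed to 831 and 944 in undifferentiated cells, 693 to 792 in the day 1 groups, 278 to 429 in the day 3 groups and 135 and 159 in EB day 4. Dppa5a (9.05 in undifferentiated cells, log2) and Klf2 (7.35) weighed most in the sums there. Klf4 and Nanog were the 2 of 10 called lower at EB day 1 (5.46% of all genes) and at ML day 1 (6.43%). The median changes of the 10 there were -0.87 and -0.94. The lower count was 8 at EB day 3 and 7 at ML day 3 (10.8% of all genes in each). At EB day 4, 9 of the 10 ES cell markers were called lower and 1, Tbx3, higher, where 22.2% and 18.8% of all genes were.

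Other germline genes were counted in the same way. Of 20 meiotic chromosome genes tested, 12 were lower and 1 higher in EB day 4, where 22.2% of all genes were lower. The list's median change there was -1.1 against -0.05 over all genes. The count of 12 was 5 without EB day 4 clone 2, 8 without EB day 4 clone 1 and 6 without undifferentiated clone 2. At EB day 1, 2 were lower and 1 higher, and with 1 array left out the lower count ran from 0 to 6. Over all genes tested, 5.46% were lower and 8.09% higher at EB day 1. In EB day 4 Syce1, of the synaptonemal complex, was 33.0-fold lower (-5.05 ± 0.33, adjusted p = 3.52e-05 by limma). Smc1b, a meiotic cohesin, was at least 31.1-fold lower, with fitted changes of -6.17 and -4.24 without undifferentiated clone 1 or clone 2. Hormad1 and Hormad2, of the meiotic chromosome axis, were at least 5.38-fold and 2.43-fold lower, and Hormad1 had -4.77 and -2.76 without EB day 4 clone 2 or clone 1. Meig1, chosen here after its value was seen, was the one called higher in EB day 4, by at least 6.06-fold, with -6.48 in undifferentiated cells not well above background. Meig1 passed the filter on dim probes only through EB days 3 and 4, the groups where it was high, so its call is a description.

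Of 13 piRNA pathway genes, 7 were lower in EB day 4 and none higher, where 22.2% and 18.8% of all genes were, with a median of -1.63. The count of 7 was 4 without undifferentiated clone 2 or with normexp. Gtsf1 was at least 25-fold lower (adjusted p = 3.3e-05 by limma), Tdrd12 22.9-fold (adjusted p = 0.0002), the PIWI protein Piwil2 at least 5.17-fold and Piwil4 at least 4.32-fold. Of 15 other germline-restricted genes, 10 were lower in EB day 4 and none higher (median -1.74), and 7 or 8 with any 1 of the 4 arrays left out. Among genes well above background on all 12 arrays, 2 of 6 piRNA genes and 6 of 8 other germline-restricted genes were lower in EB day 4. So were 7 of 9 meiotic chromosome genes, against 2504 of 13349 genes in all. Tex14, of the bridges between germ cells, was at least 11.8-fold lower. Rhox9 was 4.5-fold lower (-2.81 and -1.54 without EB day 4 clone 2 or clone 1), and Taf7l at least 1.6-fold, a call that normexp ended (adjusted p = 0.163). Rhox6 was 5.55-fold lower, with -3.57 and -1.38 without EB day 4 clone 2 or clone 1, a call ended in the compared groups alone (0.0585). In ML day 1, where 11.7% of all genes were higher, 2 of the 15 were, Tex101 (3.61-fold, adjusted p = 0.0135 by limma) and Tex19.2, the neighbouring paralog of Tex19.1 (3.38-fold, adjusted p = 0.0211). Both calls ended when either ML day 1 array was left out (adjusted p 0.0742 to 0.118), and that of Tex19.2 also without undifferentiated clone 2 (0.115).

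Of 10 primordial germ cell genes, 5 were lower and 1 higher in EB day 4, where 22.2% and 18.8% of all genes were, with a median of -0.94. Tfap2c, a transcription factor of primordial germ cells, was 4.49-fold lower, Dnd1, an RNA-binding partner of NANOS proteins, 3.58-fold and the alkaline phosphatase Alpl 2.62-fold. Fut4, which makes the SSEA-1 epitope, was 4.65-fold higher. Without EB day 4 clone 1 or undifferentiated clone 1 the count of 5 was 3. At day 1 the receptor Kit was lower in EB (4.58-fold, adjusted p = 0.0135 by limma) and ML (6.08-fold, adjusted p = 0.00781). The EB call ended without undifferentiated clone 2 (0.0715), EB day 1 clone 1 (0.072) or EB day 1 clone 2 (0.0825), and the ML call without ML day 1 clone 2 (0.0615).

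Since Stra8 answers to retinoic acid, 10 retinoic acid targets were set beside it. At day 1 Rarb, a retinoic acid receptor, was lower by at least 2.79-fold in EB and 2.86-fold in ML, and Stra6, a retinol transporter, was 2.39-fold and 2.01-fold higher. The Rarb call in EB ended without either EB day 1 array (0.0517 and 0.0691), both Rarb calls ended with normexp (0.127 and 0.331), and the Rarb call in ML and both Stra6 calls ended whichever array was left out. By EB day 4, 2 of the 10 targets were lower and 4 higher, where 22.2% and 18.8% of all genes were. Cyp26a1, the enzyme that breaks down retinoic acid, was 64.4-fold higher (6.01 ± 0.68, adjusted p = 0.000251), with 6.65 and 5.37 without undifferentiated clone 1 or clone 2. Hoxb1 was called higher (adjusted p = 0.00619), with no exact fold, since 1 of the 2 undifferentiated arrays was not well above background (-4.82 ± 2.1, SD, against -0.20 ± 0.48 in EB day 4). Hoxb1 passed the filter on dim probes only through EB days 3 and 4, the groups where it was high. Its change was 6.10 and 3.12 without undifferentiated clone 1 or clone 2. Crabp1 was 4.61-fold higher, a call that ended without undifferentiated clone 1 (0.0695) or EB day 4 clone 1 (0.0538), and Dhrs3 was 4.68-fold lower.

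Of 18 known repressors of germline genes tested, 1 was higher in EB day 1 than in undifferentiated cells (8.09% of all genes). None was lower there (5.46%). In EB day 3, 2 were lower and 2 higher (10.8% and 13%). Under other settings the higher count ran from 0 to 3 in both. Dnmt3b, a DNA methylation enzyme, was 4.32-fold higher in EB day 1 (adjusted p = 0.0368 by limma) and 3.87-fold in EB day 3 (0.0322). It was not called in ML day 1 (0.0603), ML day 3 or EB day 4. In ML day 1, 4 of the 18 were higher (11.7% of all genes), or 0 to 6 under other settings. In ML day 3, 5 were lower and 1 higher (10.8% and 12.6%), the lower count running from 0 to 6 under other settings. ML day 3 was lower than ML day 1 for 5 (6.7%), or 1 to 8. In EB day 4 the shares were near those of all genes. There 5 were lower and 3 higher (median -0.02), with 22.2% and 18.8% of all genes. Dnmt3l, the cofactor of de novo DNA methylation, was 3.06-fold higher in ML day 1 (adjusted p = 0.0158 by limma) and 16.2-fold lower in EB day 4 (-4.02 ± 0.33, adjusted p = 7.14e-05). The ML day 1 call ended without undifferentiated clone 2 (0.0893) or either ML day 1 array (0.0813 and 0.0915) and in the compared groups alone (0.0503). E2f6 was 2.24-fold higher in EB day 4 (adjusted p = 0.00676), a call that ended without EB day 4 clone 1 (0.0551) and with the mean of its probes (0.0661). L3mbtl2, of the same complex, was 2.98-fold lower, and Max, Mga and Pcgf6 were not called, at 0.21, 0.18 and -0.20. Dnmt3a was 3.78-fold lower, a call that ended without undifferentiated clone 1 (0.139), EB day 4 clone 1 (0.0738) or EB day 4 clone 2 (0.0923) and with the mean of its probes (0.101). The count of 5 lower was 2 without EB day 4 clone 2 or undifferentiated clone 1 and 3 without EB day 4 clone 1, and with any 1 of these 4 arrays left out 0 or 1 were higher.

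**Figure D5:**
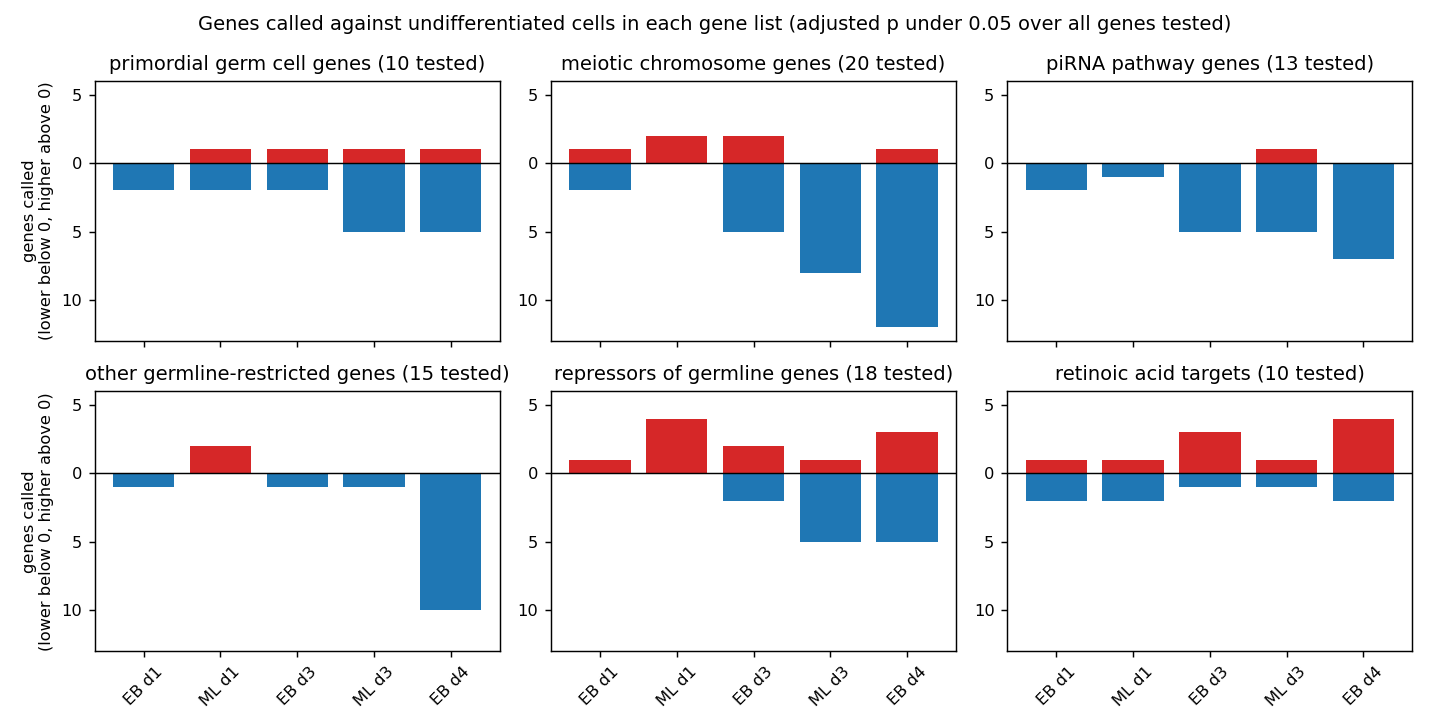
Number of genes of 6 lists called lower (blue, below 0) and higher (red, above 0) than undifferentiated cells in each differentiated group, by limma at an adjusted p under 0.05 over all genes. In the meiotic chromosome list the bar reaches 12 lower genes at EB day 4, from 2 at EB day 1, while the repressors and the retinoic acid targets have bars on both sides.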

How the data were processed

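Total RNA was made into labelled cRNA and hybridised to 12 Agilent 1-colour whole mouse genome arrays. Per the file headers the deposited scanner files hold, for each spot, an intensity (the processed signal, background-subtracted by Agilent Feature Extraction 10.5.1.1, 10.7.1.1 or 10.7.3.1 according to the array) and flags. The submitters' processing notes name version 9.5.1.1. The authors' deposited value table also holds intensities, linear, with the same quantiles on every array (median 36.6 in each column) and correlating at 0.998 or more with the scanner values. It was used as an alternative.

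The log2 processed signal of the 43379 non-control spots was set to the array's 75th percentile, spots flagged as outliers were dropped and spots of a probe averaged (41174 probes, 32 of them lost). Probes well above background on both arrays of at least 1 group were kept (26176), with the probe of highest mean for each gene (17533 genes, 15129 with a symbol). Probe names were updated through RefSeq by accession (26961) or symbol (6414), and 7767 kept the file's name. 8 arrays carry a newer annotation that names all 10 members. The older one names 9 and calls Tex19.1 Tex19, on the same probe. Positions are those of the file headers' mm9 annotation, and the place of a probe within its transcript was not examined.

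Group means were fitted to the 12 arrays with limma 3.58.1 (R 4.3.3; 6 residual degrees of freedom) for 11 comparisons, with p-values adjusted by Benjamini-Hochberg within each. The fit was tested on simulated data. A fold is "at least" where a group had both arrays not well above background: its mean was replaced, array by array, with the dimmest signal well above background when that was higher. Alternatives were normexp background correction (offset 50), quantile scaling, the authors' values, no or a stricter filter, the mean of a gene's probes, the clone number as a block, a trended prior, smaller fits and leaving out each array. With an array left out, the lone array of a group was assumed to vary like the others.

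All members are named, with up to 4 called genes of each list by size of change and the genes of closest correlation. The members, lists and markers were chosen with earlier results of these data known, so their counts are descriptions. Where the labels do not say that clones are separate lines, p-values measure the spread between these samples. A result for 1 listed gene is not reported here.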

Additional observations from a re-analysis of the deposited data

How the results depend on the processing

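Of 29 called changes of the 10 genes, none reversed in 252 values under other settings, where 227 were still called and 25 were not, or in 116 values with 1 array left out, where 82 were still called and 34 were not. 14 of the 29 were called in every value. The stricter filter, well above background on all 12 arrays, left 5 of the 10 genes and counts of 0 called in EB day 1, 1 in ML day 1, 1 in EB day 3, 1 in ML day 3 and 5 in EB day 4 against undifferentiated cells, 1 between EB days 3 and 1 and 2 between ML days 3 and 1, with fewer genes tested by construction. In ML day 1 against undifferentiated cells, quantile scaling and the authors' values each gave 1 in place of 2. In EB day 3 against undifferentiated cells, no filter and the compared groups alone each gave 2 in place of 4. In ML day 3 against undifferentiated cells, normexp gave 4 in place of 2. Between EB days 3 and 1, where the count was 2, quantile scaling, the authors' values and no filter gave 0, and the compared groups alone and the 8 arrays of the shared scan day gave 1. Between EB days 4 and 3 the compared groups alone gave 1 in place of 5. The cause was not tested.

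With 1 array left out the counts ran from 1 to 2 in EB day 1, 1 to 3 in ML day 1, 1 to 5 in EB day 3, 2 to 4 in ML day 3 and 8 to 9 in EB day 4 against undifferentiated cells. They ran from 0 to 3 between EB days 3 and 1, 2 to 6 between ML days 3 and 1, 1 to 6 between EB days 4 and 3 and 0 to 2 between formats at day 3, and were 0 between formats at day 1 and for the difference of day effects.

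The clone numbers share only a number: clone differences correlated between groups at -0.157 to 0.225. With clone number as a replicate block the count between EB days 3 and 1 was 1 in place of 2. The call that ended was that of Tex19.1 (adjusted p = 0.0514 by limma). The counts of the other comparisons stayed as they were, such as 9 in EB day 4 against undifferentiated cells.

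Dimness limits Stra8, Dazl, Sycp1 and Nanos3 in EB day 4, where the fitted changes are not measured sizes. For Mael only 1 of the 2 EB day 4 arrays was well above background, so its folds there are not exact. All genes called in EB day 4 against undifferentiated cells split into 3888 lower and 3288 higher, or 2557 and 3617 with normexp, and between EB days 4 and 3 into 1555 and 684, or 1218 and 1669 with normexp.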
